A study of Mus musculus with 9 samples.

Results

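The cytokine receptors of early blood cells described here are 8 protein-coding genes, Kit, Csf3r, Csf2ra, Csf2rb, Csf2rb2, Il3ra, Il6ra and Il6st. They were taken from the count table by symbol, through the Ensembl identifier of each row. They are 8 of 37607 annotated gene rows, each had 1 row, and all 8 passed the filter on low counts that kept 18576 genes. The RNA came from sorted LSK cells, bone marrow cells that lack lineage markers and carry Sca1 and c-Kit, a fraction made of stem cells and the first multipotent progenitors. All animals were C57BL/6 mice examined at 6 months of age, and the labels give all of them 5 injections of poly(I:C), an RNA mimic that induces interferon and through it the Mx1 promoter driving Cre recombinase. Wild-type animals carried Mx1-Cre and Dnmt3a+/+ (3 libraries). Mutant animals, written Dnmt3a+/m, carried Mx1-Cre and 1 Dnmt3a allele from which Cre switches on the mutant form (4 libraries, named here by group and title number as mutant_824, mutant_827, mutant_829 and mutant_830). Cre-negative animals carried the conditional allele without Cre, and the design text writes them as Dnmt3a+/- (2 libraries, cre_negative_780 and cre_negative_819). Cre-negative animals thus differ from wild type both in the allele and in Cre, and these cannot be told apart. The Mx1 promoter responds to interferon in many cell types, so recombination is not restricted to LSK cells. The labels do not state how the numbered libraries relate to animals, and p-values measure the spread between these libraries only.

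Haematopoietic cytokine receptors sit at the cell surface and hand the signal of a secreted factor to kinases inside the cell. Kit is a receptor tyrosine kinase for stem cell factor and signals on its own, whereas the other 7 belong to the cytokine receptor family, which lacks kinase activity and works through Janus kinases and STAT transcription factors. Csf3r binds G-CSF as a homodimer, while Csf2ra, Il3ra and Il6ra are ligand-binding alpha chains that need a signalling partner: Csf2rb, the beta chain shared by GM-CSF, IL-3 and IL-5, Csf2rb2, a second mouse beta chain used by IL-3, and Il6st, also called gp130, shared by the IL-6 family. In LSK cells these receptors are known for roles in survival, in emergency granulopoiesis and in the choice of the myeloid path.

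All positions are those of GRCm38. Kit (ENSMUSG00000005672) lies on chr5:75574916-75656722 on the plus strand. Csf3r (ENSMUSG00000028859) lies on chr4:126024550-126044440 on the plus strand. Csf2ra (ENSMUSG00000059326) lies on chr19:61223957-61228429 on the minus strand, and Il3ra (ENSMUSG00000068758) on chr14:14346275-14356011 on the plus strand. The beta chain genes are neighbours on chromosome 15, Csf2rb2 (ENSMUSG00000071714) at chr15:78282507-78305721 on the minus strand and Csf2rb (ENSMUSG00000071713) at chr15:78325752-78353847 on the plus strand. Il6ra (ENSMUSG00000027947) lies on chr3:89864059-89913196 on the minus strand and Il6st (ENSMUSG00000021756) on chr13:112464070-112510086 on the plus strand.

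The promoters of 7 of the 8 genes were found in the RefSeq table of GRCm38.p6, as 300 bases from 250 before to 50 after the start site, for all but Csf2rb. They were searched on both strands for short motifs of 5 blood cell factors or factor families. The motif of PU.1, a master factor of myeloid genes, was spelled GAGGAAG. That of the C/EBP family was TTGCNNAA. Erythroid and stem cell factors of the GATA family were searched by the letters AGATAA. The RUNX family was searched by the letters TGTGGT. The STAT factors, which act downstream of these receptors, were searched as TTCNNNGAA. None of these motifs overlapped another in the promoters printed, other than the PU.1 matches of Csf2ra, which share a base. The 5 promoters below are shown because they belong to the genes on which the results turn: Csf3r, which stood apart in the Cre-negative libraries, Csf2ra, whose level went with the neutrophil markers, Csf2rb2, the weaker of the beta chains, and the IL-6 receptor pair Il6ra and Il6st, which varied together. Capitals mark motif matches. In the order shown they are chr4:126024409-126024708 on the plus strand, chr19:61228369-61228668 on the minus strand, chr15:78305672-78305971 on the minus strand, chr3:89913147-89913446 on the minus strand and chr13:112463820-112464119 on the plus strand, each written 5′ to 3′ in the direction of transcription.
Csf3r: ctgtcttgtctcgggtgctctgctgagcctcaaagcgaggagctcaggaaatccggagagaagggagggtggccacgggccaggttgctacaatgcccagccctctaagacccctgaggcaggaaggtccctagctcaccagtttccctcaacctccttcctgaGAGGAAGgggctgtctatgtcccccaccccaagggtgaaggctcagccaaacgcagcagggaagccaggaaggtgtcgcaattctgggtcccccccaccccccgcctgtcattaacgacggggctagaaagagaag
Csf2ra: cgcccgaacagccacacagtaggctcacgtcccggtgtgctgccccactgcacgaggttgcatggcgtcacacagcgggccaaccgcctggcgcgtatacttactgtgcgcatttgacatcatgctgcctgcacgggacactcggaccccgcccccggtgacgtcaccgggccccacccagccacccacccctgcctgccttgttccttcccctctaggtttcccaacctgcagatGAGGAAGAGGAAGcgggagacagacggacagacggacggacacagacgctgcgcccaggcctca
Csf2rb2: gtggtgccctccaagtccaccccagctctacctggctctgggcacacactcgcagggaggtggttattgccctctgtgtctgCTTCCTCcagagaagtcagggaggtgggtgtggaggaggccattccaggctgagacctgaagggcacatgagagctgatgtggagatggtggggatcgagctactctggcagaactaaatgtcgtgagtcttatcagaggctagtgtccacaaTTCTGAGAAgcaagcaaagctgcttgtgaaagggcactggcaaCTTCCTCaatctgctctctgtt
Il6ra: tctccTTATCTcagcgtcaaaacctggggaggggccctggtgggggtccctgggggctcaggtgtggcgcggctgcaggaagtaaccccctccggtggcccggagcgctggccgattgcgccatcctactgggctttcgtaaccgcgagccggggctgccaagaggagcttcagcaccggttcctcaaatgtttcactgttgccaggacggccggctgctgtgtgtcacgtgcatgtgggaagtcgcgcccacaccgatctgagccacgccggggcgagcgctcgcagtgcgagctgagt
Il6st: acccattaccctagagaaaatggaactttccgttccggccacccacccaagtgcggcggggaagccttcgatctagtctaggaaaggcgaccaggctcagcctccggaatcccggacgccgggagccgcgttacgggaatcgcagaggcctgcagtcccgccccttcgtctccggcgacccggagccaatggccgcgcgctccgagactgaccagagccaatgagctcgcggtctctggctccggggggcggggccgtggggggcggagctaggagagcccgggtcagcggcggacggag

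PU.1 letters were present in 4 of the 7 promoters. Positions give the leftmost base of the match along the gene, negative before the start site and positive from it on, with no position 0. Kit held a match at -223, Csf3r at -86, Csf2ra at -14 and -8, and Csf2rb2 at -168 and 29, the last gene on the opposite strand. Of all 32851 promoters in the table, 13.6% held this motif. Csf2rb2 also held the STAT letters at -15, against 8.3% of all promoters. Il3ra held the C/EBP letters at -134 (10.8% of all promoters) and Il6ra the GATA letters at -245 (11.2%). The RUNX letters, present in 16.8% of all promoters, were in none of the 7, and Il6st held none of the 5 motifs. CpG dinucleotides, the sites where Dnmt3a can place methyl groups, numbered 35 in the Il3ra promoter, 33 in Il6st, 25 in Il6ra, 23 in Csf2ra, 20 in Kit, 9 in Csf3r and 3 in Csf2rb2, beside a median of 7 over all promoters. Methylation was not analysed here, and these counts describe the sequence only.

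Gene counts per library ranged from 47792306 to 58405879. Dnmt3a, the targeted gene, stood at 118 and 93.5 CPM (counts relative to the TMM-scaled library size) in cre_negative_780 and cre_negative_819, at 173, 148 and 157 in wild type and at 159, 158, 171 and 153 in the mutant, and counts per gene hold both alleles. The marker list of LSK cells, which includes Kit itself, Ly6a (Sca1) and Flt3, was detected in full in every library, with no marker at 0 and a summed level of 2444 to 3638 CPM. Library cre_negative_819 stood apart. It had the lowest LSK sum, the highest summed erythroid markers (1957 CPM over 12 markers, against 113 to 267 in the other 8 libraries) and the highest mast cell and basophil markers (284 CPM, against 86.1 to 134). For Csf3r, group differences that rest on the Cre-negative group are therefore given with and without each of its 2 libraries. For other genes they are given with both libraries unless stated. In bulk RNA, fewer cells of a type and less RNA per cell cannot be told apart.

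The 8 receptors spanned a wide range of levels, from Kit and Csf3r, the most abundant per length, to Il3ra and Csf2rb2. Levels were compared between genes as RPKM, which scales counts by the length of all annotated exons and by library size, averaged over all 9 libraries. Kit averaged 50.6 RPKM with a range of 41.4 to 60.5 over libraries; these cells were sorted on its protein. Csf3r followed at 44.1 (24.2 to 49.996), and the order of these 2 was not fixed, since Kit was higher in 6 of 9 libraries and their ranges overlapped. Then came a step, for Csf2rb averaged 10.4 RPKM (7.77 to 13.9) and Csf3r was above it in 9 of 9 libraries, on average 4.23-fold.

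The lower part of the order was made of close neighbours. Il6st averaged 8.004 RPKM (6.73 to 10.2), below Csf2rb in 8 of 9 libraries with overlapping ranges. Csf2ra averaged 4.11 RPKM (2.597 to 5.31), below Il6st in all 9. Il6ra averaged 2.65 (1.98 to 3.25), below Csf2ra in 8 of 9 with overlapping ranges, and Il3ra 1.46 (0.846 to 1.97), below Il6ra in all 9. Csf2rb2 averaged 1.39 RPKM (0.703 to 2.07), and since Il3ra was above it in only 4 of 9 libraries these genes were not ordered. By mean RPKM, Csf2rb was thus above Csf2ra and Il3ra, the alpha chains it pairs with, and Il6st above Il6ra, while Csf2rb2 was not above Il3ra.

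**Figure D1:**
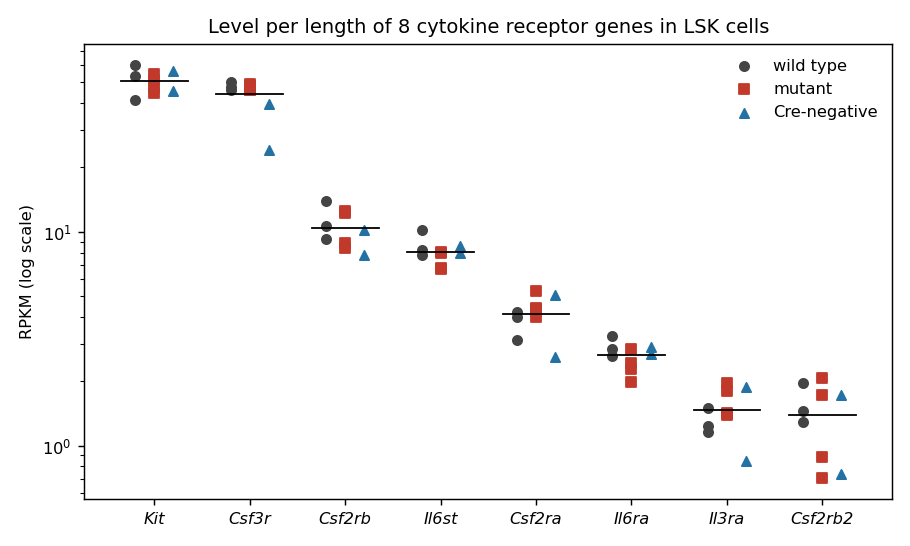
Level per length of the 8 receptor genes in each of 9 libraries, in RPKM on a log axis, with a black line at the mean over all libraries and symbols for the 3 genotype groups. Kit and Csf3r averaged 50.6 and 44.1 RPKM, while Il3ra and Csf2rb2 averaged 1.46 and 1.39, and the lowest Csf3r values are the 2 Cre-negative libraries.

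Among 38 cytokine receptor genes, the 8 and 30 others, Kit ranked 3 and Csf3r 4 by mean RPKM. Flt3, a receptor tyrosine kinase of early progenitors, ranked 1 at 85.9 RPKM, and Ifngr1, a chain of the interferon gamma receptor, ranked 2 at 59.2. Csf2rb ranked 13, Il6st 16, Csf2ra 21, Il6ra 24, Il3ra 26 and Csf2rb2 27. With the longest protein-coding transcript as the length in place of all annotated exons, a choice made after seeing the data, each of the 8 kept its rank among them, while the mean of Kit went to 86.0 RPKM.

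Mutant and wild-type libraries were compared to ask whether the mutant Dnmt3a allele goes with other receptor levels in these cells. None of the 8 receptor genes passed the test. The 8 receptors were within 0.34 of 0 on the log2 scale, and all 8 had overlapping libraries. The count of receptor genes past an adjusted p of 0.05 in edgeR's quasi-likelihood test was 0 of 8, as it was for all genes (0 of 18576, 0%). At an unadjusted p under 0.05 it was also 0 of 8, against 589 of 18576 genes (3.17%), and 0 of 8 had groups that did not overlap, against 8.32% of all genes. DESeq2 called 36 genes in all and limma-voom with quality weights 13, and no receptor gene was among them. Each group mixed libraries with and without Y-linked transcripts (2 with and 1 without for wild type, 2 and 2 for mutant, 1 and 1 for Cre-negative). With a covariate for these transcripts, 3 of 8 receptor genes had an unadjusted p under 0.05 in edgeR, against 1227 of 18576 genes (6.61%), and none passed. They were Csf2rb2 (log2 fold change -0.51, unadjusted p = 0.0295, adjusted p = 0.694 in edgeR), Il6ra (-0.32, 0.0269 and 0.694) and Il6st (-0.28, 0.0173 and 0.672).

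Kit, the stem cell factor receptor, stood at 539, 369 and 477 CPM in the wild-type libraries and at 458, 489, 417 and 398 CPM in the mutant libraries, here and below in ascending order of title number. All 4 mutant libraries lay within the wild-type range, and the group means were 462 ± 86.2 (SD, n = 3) and 440 ± 40.9 (SD, n = 4). The log2 fold change was -0.07 (SE 0.15, 95% interval -0.39 to 0.25). Because c-Kit protein was part of the sorting gate, low-Kit cells were removed before RNA was made, and the bearing of the gate on Kit RNA was not tested.

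Csf3r, the G-CSF receptor, was the most even of the set over these 7 libraries. It stood at 171, 180 and 166 CPM in wild type and at 165, 174, 178 and 167 CPM in the mutant. The groups were interleaved, with means of 173 ± 7.19 (SD, n = 3) and 171 ± 5.86 (SD, n = 4) and a log2 fold change of -0.02 (SE 0.14, 95% interval -0.33 to 0.30).

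The alpha chains of the GM-CSF and IL-3 receptors had positive log2 differences whose 95% intervals held 0. Csf2ra stood at 11.5, 8.91 and 12.1 CPM in wild type and at 11.5, 12.6, 12.5 and 15.3 CPM in the mutant, with the highest value in mutant_830. Its log2 fold change was 0.26 (SE 0.22, 95% interval -0.23 to 0.76). Il3ra, counted at far lower levels, stood at 3.67, 3.45 and 4.43 CPM in wild type and at 5.83, 4.198, 4.12 and 5.32 CPM in the mutant. Libraries mutant_824 and mutant_830 were above every wild-type library and the other two were not. The Il3ra log2 fold change was 0.34 (SE 0.27, 95% interval -0.27 to 0.94).

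The beta chains varied more within groups than between them. Csf2rb stood at 77.6, 101 and 67.5 CPM in wild type and at 61.4, 64.3, 88.7 and 91.4 CPM in the mutant, where mutant_824 and mutant_827 were low and mutant_829 and mutant_830 high. Csf2rb2, the IL-3-specific chain, followed the same split in the mutant, at 3.33, 4.198, 8.19 and 9.80 CPM, and stood at 9.26, 6.91 and 6.13 CPM in wild type. The log2 fold changes were -0.10 for Csf2rb (SE 0.19) and -0.22 for Csf2rb2 (SE 0.40, 95% interval -1.11 to 0.67), the widest interval of the set. With the covariate for Y-linked transcripts Csf2rb2 was at -0.51 (SE 0.20). The mutant group held 2 libraries with and 2 without these transcripts, and their bearing on the split of the beta chains was not tested.

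The IL-6 receptor genes had the lowest unadjusted p of the 8. Il6ra, the ligand-binding chain, stood at 28.1, 24.5 and 22.6 CPM in wild type and at 17.1, 19.8, 24.4 and 21.1 CPM in the mutant. In the mutant, 3 of 4 libraries were below every wild-type library, and mutant_829 was within their range. The log2 fold change of Il6ra was -0.28 (SE 0.14, 95% interval -0.59 to 0.02), with an unadjusted p of 0.0678 and an adjusted p of 0.998 in edgeR. Il6st, its signalling partner, stood at 113, 91.7 and 86.1 CPM in wild type and at 74.7, 74.8, 88.9 and 87.9 CPM in the mutant. Libraries mutant_824 and mutant_827 were the lowest of the 7, and mutant_829 and mutant_830 lay inside the wild-type range. The log2 fold change of Il6st was -0.25 (SE 0.12, 95% interval -0.51 to 0.02), with an unadjusted p of 0.0622 and an adjusted p of 0.998 in edgeR. Over fits that each left out 1 library, the log2 fold change ranged from -0.36 to -0.17 for Il6ra and from -0.31 to -0.10 for Il6st. A library measure was lower in the same mutant libraries as Il6ra. The median log2 deviation of 2448 genes with at least 8000 exonic bases was -0.05, -0.04 and -0.04 in mutant_824, mutant_827 and mutant_830, below the -0.03 to 0.10 of wild type, and -0.02 in mutant_829, within that range. Its part in the mutant differences of Il6ra and Il6st was not tested.

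**Figure D2:**
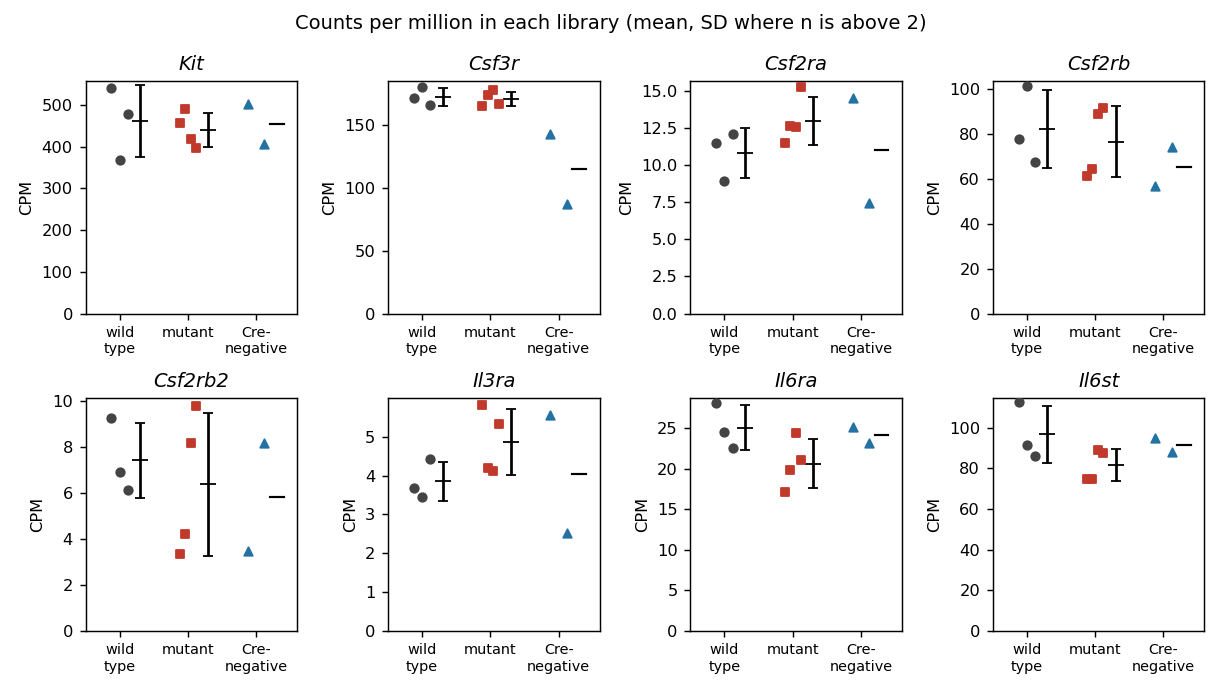
Level in CPM of each receptor gene in each library, in 1 panel per gene with axes from 0; points are libraries, horizontal bars are group means and vertical bars the SD for the groups of 3 and 4. Wild-type and mutant libraries overlap in all 8 panels, and for Csf3r the Cre-negative libraries, at 143 and 87.2 CPM, lie below all others.

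Set against wild type, the Cre-negative group shows how animals with the unrecombined allele and no Cre differ from wild-type animals with Cre. Csf3r was the receptor gene that stood out. The libraries cre_negative_780 and cre_negative_819 held 143 and 87.2 CPM, both below every one of the other 7 libraries, whose range was 165 to 180 CPM. The log2 fold change was -0.59 (SE 0.17, 95% interval -0.97 to -0.20), with an unadjusted p of 0.00651, but its adjusted p was 0.792 in edgeR and it did not pass. Both Cre-negative libraries were below all other libraries for 366 of 18576 genes, or 1.97%.

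The size of the Csf3r difference depended on which Cre-negative library was kept. With cre_negative_819 alone, that is without cre_negative_780, the log2 fold change was -1.02 with an adjusted p of 0.00182 in edgeR. With cre_negative_780 alone it was -0.29 with an adjusted p of 0.182 in edgeR. In both fits the lone library was assumed to vary like the other groups. Library cre_negative_819, with the larger difference, was the one with 1957 CPM of summed erythroid markers, 284 CPM of mast cell and basophil markers and the lowest LSK sum, 2444 CPM. No erythroid marker was at 0 in any library. The part of these cells in the Csf3r level of that library was not tested. Library cre_negative_780, with 161 CPM of erythroid and 118 CPM of mast cell and basophil markers, lay inside the range of the other libraries on both lists. It had the highest sums of LSK markers (3638 CPM) and of granulocyte-monocyte progenitor markers (2272 CPM) of all libraries. Its megakaryocyte sum, 245 CPM, was the lowest. The Csf3r level of cre_negative_780 was below that of every library except cre_negative_819, and the part of cell composition in it was not tested.

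In the same comparison 0 of 8 receptor genes passed an adjusted p of 0.05 in edgeR, against 0% of all genes. At an unadjusted p under 0.05 there was 1 of 8, Csf3r, against 972 of 18576 genes (5.23%). By overlap, 1 of 8 had Cre-negative libraries all below wild type, against 5.12% of all genes (11.4% in either direction). DESeq2 called 59 genes and limma-voom 0, with no receptor gene in either, and the adjusted p of Csf3r was 0.191 in DESeq2. Without cre_negative_780 edgeR called 650 genes (3.37% of 19301) and 1 of 8 receptor genes, and without cre_negative_819 it called 62.

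The other receptor genes overlapped with wild type, and the chains of the GM-CSF and IL-3 receptors differed most between the 2 Cre-negative libraries. Kit was counted at 502 CPM in cre_negative_780 and at 407 in cre_negative_819, and Csf2ra at 14.5 and 7.46 CPM, the latter being the lowest Csf2ra value of all libraries. Il3ra stood at 5.56 and 2.51 CPM, again with cre_negative_819 the lowest of all libraries. The beta chains went the other way, with Csf2rb at 56.6 and 74.0 CPM and Csf2rb2 at 3.47 and 8.17 CPM. So cre_negative_819 was low in Csf2ra, Il3ra and Csf3r, and cre_negative_780 was low in both beta chains.

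The IL-6 receptor genes were close in these libraries, Il6ra at 25.1 and 23.1 CPM and Il6st at 94.8 and 88.0 CPM. The log2 fold changes against wild type were -0.02 for Kit, 0.02 for Csf2ra, 0.07 for Il3ra, -0.33 for Csf2rb, -0.35 for Csf2rb2, -0.06 for Il6ra and -0.08 for Il6st. The 95% intervals reached from -1.42 to 0.72 for Csf2rb2 and from -0.40 to 0.23 for Il6st, the narrowest of these 7.

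The comparison of mutant with Cre-negative, which shares the Cre-negative libraries with the last one, sets animals with Cre and the recombined allele beside animals with the same allele and no Cre, so that recombination and the presence of Cre cannot be told apart. Again Csf3r was the receptor gene with groups that did not overlap. It stood at 165 to 178 CPM in the 4 mutant libraries against 143 and 87.2 CPM, a log2 fold change of 0.57 (SE 0.17, 95% interval 0.21 to 0.94). The unadjusted p was 0.00587 and the adjusted p 0.8005 in edgeR, so it did not pass. Without cre_negative_780 the log2 fold change was 1.02 with an adjusted p of 0.00130 in edgeR, and without cre_negative_819 it was 0.29 with an adjusted p of 0.335 in edgeR.

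In this comparison 0 of 8 receptor genes passed in edgeR, against 0% of all genes. At an unadjusted p under 0.05 there was 1 of 8, against 978 of 18576 (5.26%), and 1 of 8 had mutant libraries all higher, against 5.09% of all genes (12.4% in either direction). DESeq2 called 21 genes and limma-voom 0, none of them a receptor gene of the 8. Without cre_negative_780 edgeR called 1835 genes (9.51% of 19301) and 2 of 8 receptor genes, Csf3r and Csf2ra (log2 fold change 0.85, adjusted p = 0.0461 in edgeR), and without cre_negative_819 it called 9, where Csf2ra stood at -0.13. With both Cre-negative libraries the log2 fold change of Csf2ra was 0.24 (SE 0.25).

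The remaining log2 fold changes of mutant against Cre-negative were -0.05 for Kit, 0.23 for Csf2rb, 0.13 for Csf2rb2, 0.27 for Il3ra, -0.22 for Il6ra and -0.16 for Il6st. Each of their 95% intervals held 0.

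**Figure D3:**
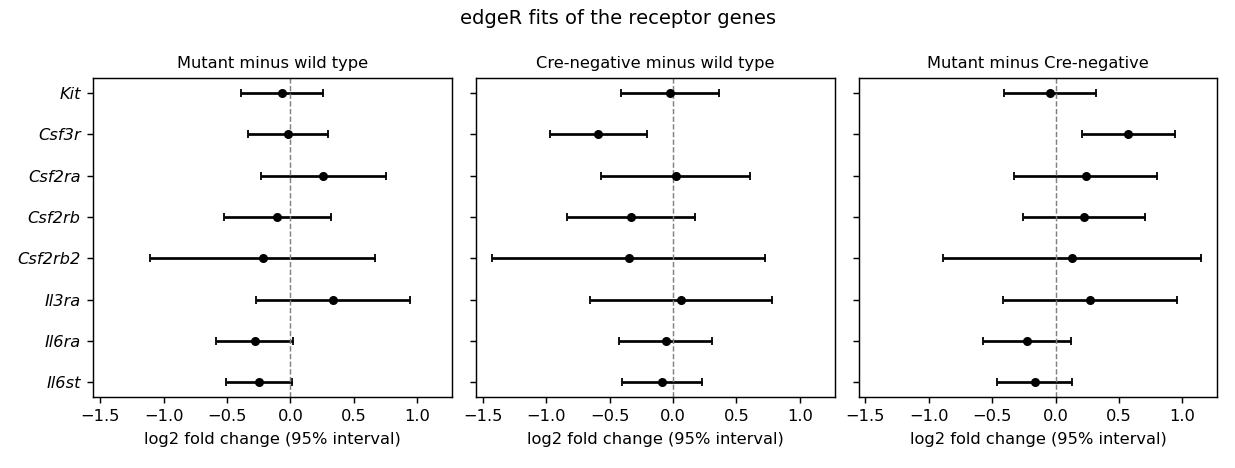
Log2 fold changes of the 8 receptor genes from the edgeR fit to all 9 libraries, 1 panel per comparison, with points at the estimate and bars for the 95% interval. The interval of Csf3r lies below 0 in the middle panel (-0.97 to -0.20) and above 0 in the right one (0.21 to 0.94), comparisons that share the Cre-negative libraries; all other intervals hold 0.

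Some receptor genes went together from library to library. Pearson's r and Spearman's rho of log2 CPM were computed over the 9 libraries for the 28 pairs of the 8 genes, with two-sided exact permutation p-values adjusted over the 28 pairs by Benjamini-Hochberg. Il6ra and Il6st, the chains of the IL-6 receptor, had the highest r, 0.92 (p = 2.92e-04 by exact permutation, adjusted p = 0.00818), and a rho of 0.98 (adjusted p = 0.00139 by exact permutation). Without the 2 libraries farthest from the median of Il6ra, r was 0.88, and over deviations from the group means it was 0.86. Among 10374 protein-coding genes with a mean of at least 5 CPM, Il6st had the highest r with Il6ra of all, and Il6ra ranked 13 for Il6st.

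The level of the IL-6 receptor pair also went with a property of the libraries. Reads outside annotated exons made up 18.7% to 29.8% of counted reads over the 9 libraries. The r with that share was 0.77 for Il6st (p = 0.0149 by exact permutation, rho 0.63) and 0.71 for Il6ra (p = 0.0317 by exact permutation, rho 0.60), and both had an adjusted p of 0.141 over the 16 relations computed. Without the 2 libraries farthest from the median of that share, r was 0.93 for each gene. The median log2 deviation of genes with long exonic sequence, given above, had an r of 0.75 with Il6st and 0.70 with Il6ra, each with an adjusted p of 0.141 by exact permutation. Both genes are themselves in that set (11099 and 8642 exonic bases). Kit (8911 exonic bases) is in it too, with an r of 0.34. These measures were chosen after seeing the data, and their part in the shared movement of Il6ra and Il6st was not tested. The ratio of the genes, which cancels scaling, put Il6ra counts at 22.9% to 27.5% of Il6st counts.

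Csf2rb and Csf2rb2, the neighbouring beta chain genes, had an r of 0.80 (p = 0.0139 by exact permutation) and a rho of 0.80, and the adjusted p was 0.13 for r and 0.194 for rho. In the 4 mutant libraries both were low in mutant_824 and mutant_827 and high in mutant_829 and mutant_830. The bearing of Y-linked transcripts on this shared split was not tested. Their transcripts share sequence. Of the 50-base windows of Csf2rb transcripts 18.4% occurred in another gene, most often Csf2rb2, and of those of Csf2rb2 19.4%. At 100 bases the shares were 6.96% and 7.2%. A read that lies within such a window has no unique place, and the counts of both genes are uncertain to that extent. The same holds for Csf3r. Of its windows, 11.2% at 50 bases and 0.414% at 100 bases occurred in another gene, most often AC105061.2. The other 5 genes shared no window. Csf2rb2 counts were 5.43% to 11.9% of Csf2rb counts, and with both genes summed the log2 fold changes were -0.11 for mutant against wild type and -0.33 for Cre-negative against wild type.

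The log2 ratios of Csf2rb2 to Csf2rb and of Il6ra to Il6st did not separate the genotype groups. The libraries overlapped in all 6 comparisons, and the adjusted p was 0.8 for each of the 6 by two-sided exact permutation. The ratio of Csf2rb2 to Csf2rb differed by -0.23 between mutant and wild type, and that of Il6ra to Il6st by -0.04. The smallest p that the group sizes allow was 0.0286 with 4 libraries against 3, 0.1 with 2 against 3 and 0.0667 with 4 against 2.

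Csf2ra and Il3ra, the alpha chains that share Csf2rb as a partner, had an r of 0.85 (p = 0.00348 by exact permutation, adjusted p = 0.0488), but a rho of 0.58. Without the 2 libraries farthest from the median of Csf2ra, r was 0.46 (p = 0.308 by exact permutation), so the relation rests on those libraries. Kit went opposite to Csf2rb, with an r of -0.72 (p = 0.0327 by exact permutation, adjusted p = 0.229) and a rho of -0.67, which did not pass. All other pairs had an adjusted p above that of Csf2rb and Csf2rb2.

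Csf2ra, the GM-CSF alpha chain, went with the neutrophil markers. The sum of 10 markers, among them S100a8, S100a9, Ngp and Camp, ranged from 48.3 CPM in cre_negative_819 through 60.3 to 170 CPM in wild type and 138 to 425 CPM in the mutant, with 333 CPM in cre_negative_780. No neutrophil marker was at 0 in any library. Csf2ra was lowest in cre_negative_819 and highest in mutant_830, the libraries with the lowest and highest marker sums. The r was 0.90 (p = 8.82e-05 by exact permutation, adjusted p = 0.00705 over the 80 relations of 8 receptor genes with 10 marker lists), and rho was 0.97 (adjusted p = 0.0132 by exact permutation). Without cre_negative_819 and mutant_830 r was 0.86. Csf2ra also had an r of 0.72 (rho 0.85) with granulocyte-monocyte progenitor markers and of 0.76 (rho 0.72) with B cell markers. Il3ra had an r of 0.81 (rho 0.72) with the neutrophil markers. None of these had an adjusted p under 0.05 by exact permutation. The part of neutrophil-lineage RNA in the Csf2ra level, also in its mutant minus wild type difference, was not tested.

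**Figure D4:**
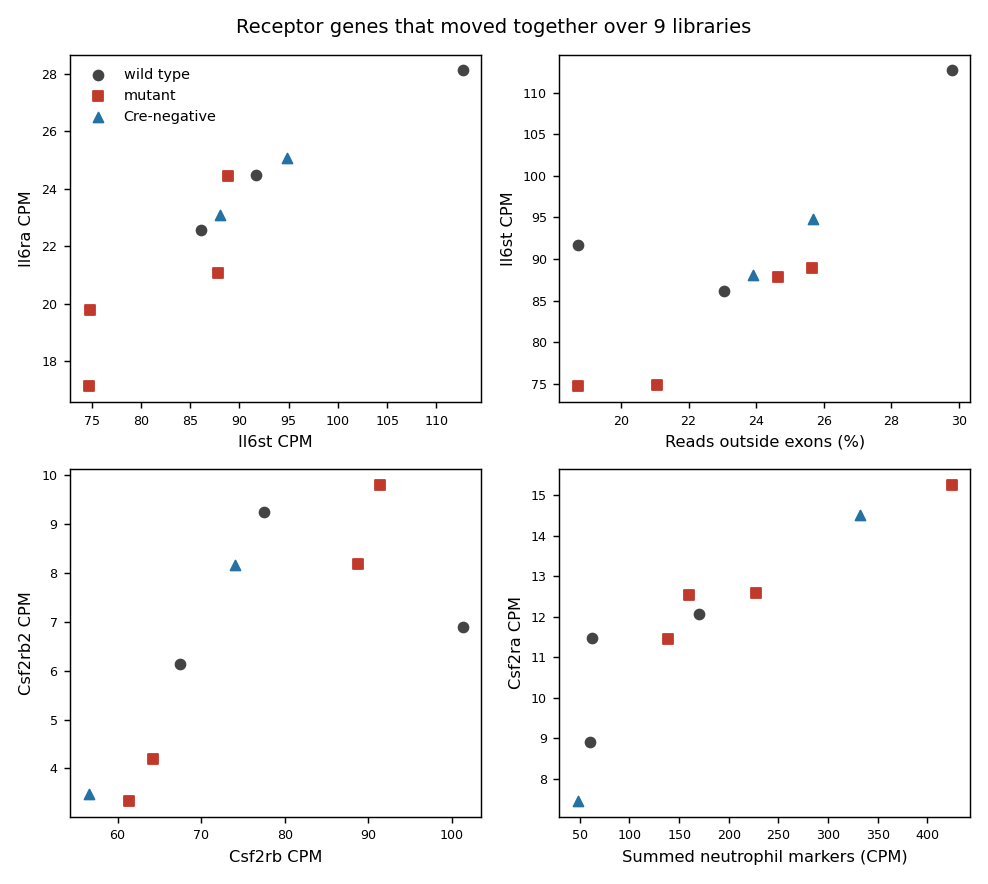
Levels of receptor genes against each other and against library measures over 9 libraries, with 1 point per library and symbols for the genotype groups: Il6ra against Il6st, Il6st against the percentage of reads outside exons, Csf2rb2 against Csf2rb, and Csf2ra against the summed neutrophil markers (all levels in CPM, linear axes that do not start at 0). The Il6ra and Il6st points lie near a line (r = 0.92), and Csf2ra reaches from 7.46 CPM in the library with the lowest marker sum to 15.3 CPM in the one with the highest.

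The genes whose pattern over the 9 libraries was most like that of each receptor were named by the highest r of log2 CPM among protein-coding genes with a mean of at least 5 CPM, as a description with no test. For Kit they were Nfatc1 (r = 0.95), Rin3 and Slc29a3, and for Csf3r they were Homez (r = 0.96), Nxpe5 and Camk2a. Csf2ra was most like Elmo3 (r = 0.97), Chic1 and Arhgef2, and Il3ra most like Phldb1 (r = 0.99), Map3k11 and Klhl36. Csf2rb was most like Fam84b (r = 0.93), Adam9 and Ssbp1, and Csf2rb2 most like Zrsr2 (r = 0.96), Gm15446 and Kctd6. Il6ra was followed by Il6st (r = 0.92), Bbx and Oas2, and Il6st by Itpr1 (r = 0.97), Chka and Zbtb26.

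Genes for several ligands of these receptors had few counts in the LSK cells themselves, while Osm did not. Il3 had 0 counts in all 9 libraries, which at 3 counts allows a level of up to 0.0530 to 0.0632 CPM depending on the library. Csf3, which encodes G-CSF, averaged 0.0471 CPM and Csf2, which encodes GM-CSF, 0.0352 CPM, means under that limit. Kitl, the ligand of Kit, averaged 0.455 CPM and Il6 0.292 CPM. Of the 14 ligand genes listed, 13 were matched and 7 passed the filter on low counts, among them Csf1 at 10.2 CPM and Osm, an IL-6 family ligand that signals through Il6st, at 9.74 CPM. Osm stood close in the groups, at 9.32 CPM in wild type, 10.2 in the mutant and 9.56 in Cre-negative libraries as means.

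Downstream of the receptors, the genes were grouped as Janus kinases and STATs (11 genes), adaptors and kinases of the Ras and PI3K routes (30), brakes on receptor signalling (21) and targets of cytokine signalling (20), all of which were tested, with 29 of 30 other receptors. No gene of these lists passed in any of the 3 comparisons, neither in edgeR (0 higher and 0 lower in each list) nor in DESeq2 or limma-voom with all libraries, as in edgeR no gene of the 18576 did (0%). For mutant against wild type the list medians of the log2 fold change were 0.07 for Janus kinases and STATs, -0.02 for the adaptors, -0.08 for the brakes, 0.04 for the targets and 0.0006 for the other receptors, beside -0.09 for the 8 receptors and -0.02 for all genes. In Cre-negative libraries against wild type they were 0.07, 0.03, -0.03, -0.0015 and 0.01 in the same order, beside -0.07 for the 8 receptors and 0.02 for all genes.

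Between mutant and wild type, 5 of the 111 genes of these lists (4.5%) had an unadjusted p under 0.05 in edgeR, a share near the 3.17% of all genes, so the values that follow are a description. Myc, a growth regulator and a target of Kit and cytokine signals, stood at 141, 120 and 125 CPM in wild type and at 150, 144, 152 and 163 in the mutant, without overlap (log2 fold change 0.24, SE 0.09, adjusted p = 0.998 in edgeR). Socs4, of the suppressor of cytokine signalling family, stood at 117, 97.8 and 89.6 CPM in wild type and at 75.7, 83.6, 80.4 and 82.1 in the mutant (log2 fold change -0.33, SE 0.14, adjusted p = 0.998 in edgeR). Myc libraries were all higher and Socs4 libraries all lower in the mutant, where 4.17% and 4.15% of all genes had groups apart in these directions. Nf1, a brake on Ras, had a log2 fold change of -0.38 with overlapping libraries, and Gadd45g, a cytokine-induced stress gene at about 1 CPM, one of 0.74 without overlap. The last of the 5 was Ccnd2, a D-type cyclin, named here after its values were seen, with a log2 fold change of -0.25 (SE 0.10).

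In the Cre-negative comparisons no signalling gene passed with all libraries, and the genes given here are those with the lowest unadjusted p in their lists. Socs3, which binds and restrains the receptors of G-CSF and IL-6, stood at 10.1 and 6.54 CPM in cre_negative_780 and cre_negative_819, against 14.9, 27.3 and 13.4 in wild type (log2 fold change -1.15, SE 0.41, adjusted p = 0.823 in edgeR). Pim1, a survival kinase and a STAT target, stood at 176 and 135 CPM against 197, 208, 274 and 301 in the mutant (log2 fold change of mutant minus Cre-negative 0.66, SE 0.20, adjusted p = 0.8005 in edgeR). For both genes the Cre-negative libraries were below all other libraries, as they were for Csf3r and for 1.97% of all genes, and a shared pattern was not tested.

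Among the other receptors, Ifngr1 stood at 187 and 229 CPM in the Cre-negative libraries against 143, 143 and 151 in wild type, a log2 fold change of 0.51 (SE 0.13, adjusted p = 0.770 in edgeR). Epor, the erythropoietin receptor and an erythroid marker, stood at 20.7 CPM in cre_negative_819 alone, while cre_negative_780 held 4.57 CPM and the wild-type libraries 3.17 to 5.92. Its log2 fold change of 1.46 thus rested on cre_negative_819, and without it the value was -0.02. Fitted without cre_negative_780, 11 of the 111 genes of the lists (9.91%) passed in edgeR against wild type, beside 3.37% of all genes. They were 5 of 29 other receptors, Ifngr1 and Epor among them, 2 of 11 Janus kinases and STATs and 4 of 30 adaptors. Against the mutant 23 of 111 (20.7%) passed, beside 9.51% of all genes: 10 of 29 other receptors, 4 of 11 Janus kinases and STATs, 4 of 30 adaptors, 2 of 21 brakes and 3 of 20 targets, Pim1 among the last. These genes share the libraries of the Csf3r comparison, and their values are given beside it as measurements only.

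**Figure D5:**
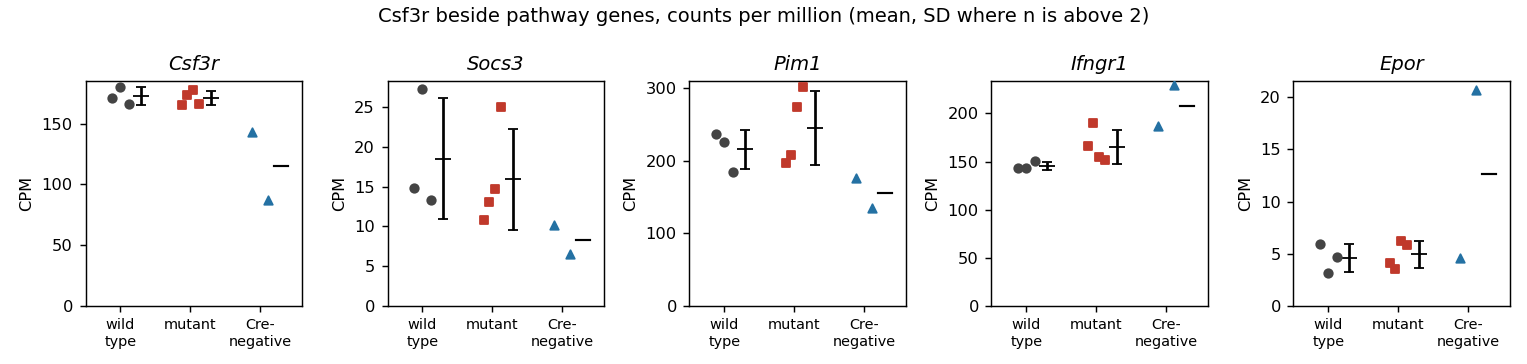
Level in CPM of Csf3r and of 4 genes of its signalling route or of other receptors in each library, with axes from 0, horizontal bars for group means and vertical bars for the SD where a group has 3 or 4 libraries. The Cre-negative libraries are the lowest points for Csf3r, Socs3 and Pim1, and the single high Epor point at 20.7 CPM is cre_negative_819.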

How the data were processed

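Stranded total RNA libraries depleted of ribosomal RNA were made from sorted LSK cells, per the labels' protocols. The submitters' processing notes name STAR, HTSeq 0.5.3p3, DESeq2 and the build mm10 (GRCm38). Annotation and strand setting of the counting are not stated, so antisense Gm48860 (over 46 exonic bases of Il3ra) and Gm42809 (over 242 of Il6ra) are uncertain. On the same strand, Mir7676-2 lies over 62 exonic bases of Csf2rb and Mir7676-1 over 62 of Csf2rb2. Both have rows of their own in the counts, and their bearing on the beta chain counts was not tested. The authors deposited raw counts for 39179 Ensembl gene rows, of which 37607 matched GENCODE M21. A further 5 rows name no gene, took 40.5% to 47.3% of counts and were left out. They include reads without a unique alignment (21.6% to 28.3%), which lowers counts of near-identical genes. A second, scaled table was not used.

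Genes kept by filterByExpr (18576) were scaled by TMM, and edgeR 4.0.16 (R 4.3.3) was fitted by quasi-likelihood to all 9 libraries with 1 mean per group, two-sided, with Benjamini-Hochberg adjustment over all genes at 0.05. The standard error of a log2 fold change was taken from its F statistic. Levels in CPM use TMM-scaled library sizes, and correlations used log2 CPM. Replicates differed by far more than sampling noise (chi-square per degree of freedom 14.6 or more). Alternatives were RLE or upper-quartile scaling, DESeq2 1.42.0, limma 3.58.1 voom with quality weights, no filter, 1 CPM in 4 libraries, only the groups compared, a covariate for Y-linked transcripts, both beta chains summed, and each library left out. Simulated counts were used to test the edgeR step. The receptors, the gene lists and the marker lists were chosen with earlier results of these data known. Named genes were the 8 receptors, Dnmt3a, and, per list and comparison, the 2 genes with the lowest unadjusted p and a mean of at least 1 CPM, some of which were left out for length or are not reported here.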

Additional observations from a re-analysis of the deposited data

Results flagged for a closer look

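Among the 35 group values tested for a library far from the rest of its group, 1 stood out, where chance marks about 1 in 20 groups. Csf1, the ligand of the macrophage receptor Csf1r, stood at 11.15 CPM in mutant_830 against 9.085 to 9.431 CPM in the other 3 mutant libraries, a gap of 0.8325 of the group's range where the limit is 0.829. No receptor gene of the 8 stood out in this way in the mutant group, the only group with at least 4 libraries.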

How the results depend on the processing

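Over all alternatives, 372 of 411 log2 fold changes of the receptor genes kept their direction and their side of the threshold, 36 turned sign and 3 passed the threshold, the last being Csf3r in both Cre-negative comparisons and Csf2ra between mutant and Cre-negative, each without cre_negative_780. DESeq2 called 36 genes between mutant and wild type, 59 between Cre-negative and wild type and 21 between mutant and Cre-negative, where edgeR called 0, and limma-voom called 13 in the first. Leaving out 1 library gave 0 genes between mutant and wild type, 0 to 650 between Cre-negative and wild type and 0 to 1835 between mutant and Cre-negative. Leaving out 1 library at a time turned the sign of these log2 fold changes. Between mutant and wild type the ranges were Kit -0.20 to 0.081, Csf3r -0.027 to 0.023, Csf2rb -0.208 to 0.084, Csf2rb2 -0.489 to 0.013 and Dnmt3a -0.034 to 0.098. In the Cre-negative libraries less wild type they were Kit -0.214 to 0.105, Csf2ra -0.569 to 0.409, Csf2rb2 -1.11 to 0.104, Il3ra -0.648 to 0.514, Il6ra -0.149 to 0.024, Il6st -0.183 to 0.030, Epor -0.022 to 2.14, Csf1 -0.177 to 0.503 and Osm -0.144 to 0.159, and between mutant and Cre-negative Kit -0.16 to 0.16, Csf2ra -0.134 to 0.846, Csf2rb2 -0.306 to 0.909, Il3ra -0.164 to 1.0, Epor -2.02 to 0.14, Csf1 -0.507 to 0.174 and Osm -0.020 to 0.285. The log2 ratio of Csf2rb2 to Csf2rb ranged from -0.558 to 0.287 and from -0.52 to 0.326 in the Cre-negative comparisons, and that of Il6ra to Il6st from -0.0054 to 0.043 against wild type. The r of Csf2ra and Il3ra was 0.67 without cre_negative_819. For mutant against wild type, Csf3r turned to 0.013 with upper-quartile scaling, 0.017 with voom, 0.013 with a filter of 1 CPM in 4 libraries and 0.012 with the Y covariate. With voom, Csf2rb turned to 0.157 and Csf2rb2 to 0.105 in that comparison, and against wild type the Cre-negative values turned to -0.171 for Csf2ra, -0.195 for Il3ra, 0.036 for Il6ra, 0.026 for Il6st and -0.019 for Osm. The cause was not tested. No paired analysis was made because the labels name no pairing of libraries between the groups. With 2 Cre-negative libraries that differ in their markers, the spread of that group is poorly known, and genes at a few CPM, such as Il3ra and Csf2rb2, have wide intervals.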
